A study of Homo sapiens with 12 samples.

Results

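The 35 genes described here encode the glucose and lactate transporters, the enzymes of glycolysis, the enzymes that set its rate, and genes of oxygen sensing and of the transcriptional response to low oxygen. They were chosen by gene symbol, each matched 1 of the 57820 gene rows in the count table, and all 35 passed the filter on low counts. By role they are 2 glucose transporters, 9 genes of upper glycolysis, 6 of lower glycolysis, 4 of lactate production and transport, 5 regulators of flux, and 9 of oxygen sensing and hypoxia. The libraries come from 3 human cancer lines without MYC amplification: MDA-MB-231 (breast), SKOV3 (ovarian) and A549 (lung). Each line carried either a lentiviral vector for full-length human MYC (pCDH-puro-cMyc, called MYC cells below) or the pCDH-CMV control plasmid (control cells), and stable MYC cells were selected with puromycin. Both kinds of cells were grown for 48 h with tipifarnib, a farnesyltransferase inhibitor, or with its vehicle DMSO, and the dose was 20 µM in MDA-MB-231 and SKOV3 and 10 µM in A549. This gives 4 groups (MYC cells with tipifarnib, MYC cells with DMSO, control cells with tipifarnib, control cells with DMSO) of 3 libraries, 1 per line, so the replicates of a group are different cell lines. The labels name 1 selected culture per line and vector and do not say whether it is a clone or a pool, so an effect of MYC in 1 line and a difference between 2 selected cultures cannot be told apart. The genotype of the control samples is labelled WT, and this is taken here to mean the control-plasmid lines of the growth protocol. The labels do not state this sample by sample. The dose of tipifarnib cannot be told apart from the line where A549 is compared with the other lines.

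Glycolysis splits glucose into pyruvate, and proliferating tumour cells often reduce much of that pyruvate to lactate and export it even when oxygen is present. When oxygen is low, the prolyl hydroxylases no longer mark the HIF1A protein for destruction, and HIF1A then raises transcription of glucose transporters, most glycolytic enzymes, lactate dehydrogenase A and the kinases that keep pyruvate out of mitochondria. MYC is known to bind E-boxes in many of the same genes, and HK2 and LDHA are among its classical metabolic targets. These points are background and were not measured here.

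The libraries held 20481363 to 26962994 counts on genes, of which the 35 members took 1.21% to 2.24%. Levels are given as CPM, the count of a gene scaled to a common library size after TMM scaling. MYC itself was at 494 to 1593 CPM in MYC cells, against 48.4 to 349 CPM in control cells, with no overlap (2.61 ± 0.24 on the log2 scale, edgeR adjusted p = 0.00745). This row can hold reads of the transgene and of the endogenous gene. Markers of the lines fitted the labels in part. ERBB2 (1169 to 5747 CPM) and PAX8 (172.5 to 265 CPM) marked SKOV3, and ALDH1A1 (7911 to 9378 CPM) marked A549. ZEB1 was highest in MDA-MB-231 (106.8 to 141 CPM), while VIM and CD44 overlapped with SKOV3. AKR1C1, listed for A549, was at 259 to 562 CPM in SKOV3 and 171 to 330 CPM in A549. The ovarian markers WT1 and MUC16 were at most 1.76 and 0.651 CPM in SKOV3, and reached 8.80 and 4.27 CPM in A549. The luminal breast marker ESR1 was at 27.6 to 83.8 CPM in SKOV3 and at most 0.27 CPM in MDA-MB-231. Another of that list, GATA3, was at 5.27 to 8.33 CPM in MDA-MB-231, at most 0.299 CPM in SKOV3 and 8.17 to 19.01 CPM in A549. CDH1 was at most 0.144 CPM in MDA-MB-231, 1.71 to 6.08 CPM in SKOV3 and 30.71 to 60.15 CPM in A549. PGR was at most 0.130 CPM in any library. The alveolar markers NKX2-1, NAPSA, SFTPB and SFTPC were at most 2.05 CPM in any library, A549 included. In bulk RNA of a culture, fewer cells with a transcript and less of it per cell cannot be told apart.

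The level of most members differed between lines, as did that of most genes tested. In the model of line and group (12 libraries, edgeR quasi-likelihood test, Benjamini-Hochberg adjusted p under 0.05), 34 of 35 members differed between at least 1 pair of lines, and ADM, a vasodilator peptide, did not. Of all genes tested 83.4% differed between at least 1 pair. Of 35 members, 20 differed between MDA-MB-231 and A549 (9 higher and 11 lower in MDA-MB-231), where 57.3% of all 17096 genes tested were called, 26.9% as higher and 30.4% as lower. Between MDA-MB-231 and SKOV3 22 differed (10 higher, 12 lower in MDA-MB-231), beside 61.6% of all genes, 29.3% higher and 32.3% lower. Between SKOV3 and A549 24 differed (13 higher, 11 lower in SKOV3), beside 58.1% of all genes, 28.5% higher and 29.6% lower. These shares are near the background, so a difference between lines is no particular feature of the list. In the following values the lines are always in the order MDA-MB-231, SKOV3, A549.

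Large differences lay in which member of an enzyme or transporter family they used. SLC16A1, the lactate transporter MCT1, had 0.905 to 3.40 CPM over the 4 libraries of MDA-MB-231, 121.5 to 245 CPM in SKOV3 and 100.7 to 177 CPM in A549. MDA-MB-231 thus lay below every library of the other lines, by -6.71 ± 0.32 against SKOV3 and -6.24 ± 0.31 against A549 on the log2 scale (edgeR adjusted p = 1.86e-07 and 3.25e-07). SLC2A3, the high-affinity glucose transporter GLUT3, had 23.3 to 89.5 CPM in MDA-MB-231, 0 to 0.850 CPM in SKOV3 and 26.7 to 134 CPM in A549. SKOV3 was the line nearly without it, and both of its DMSO libraries had 0 counts. PFKM, the muscle-type phosphofructokinase, had 138.5 to 199 CPM in MDA-MB-231, 7.20 to 12 CPM in SKOV3 and 70.7 to 142 CPM in A549, again with SKOV3 below all other libraries (-3.38 ± 0.19 against A549, edgeR adjusted p = 5.68e-07). LDHB, the lactate dehydrogenase subunit of oxidative tissues, separated all 3 lines without overlap, at 600.5 to 1074 CPM in MDA-MB-231, 263 to 565 CPM in SKOV3 and 1190 to 2085 CPM in A549. EGLN3, an oxygen-sensing prolyl hydroxylase, did so too, at 0.641 to 1.03 CPM in MDA-MB-231, 2.51 to 4.12 CPM in SKOV3 and 5.32 to 24.3 CPM in A549.

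**Figure D1:**
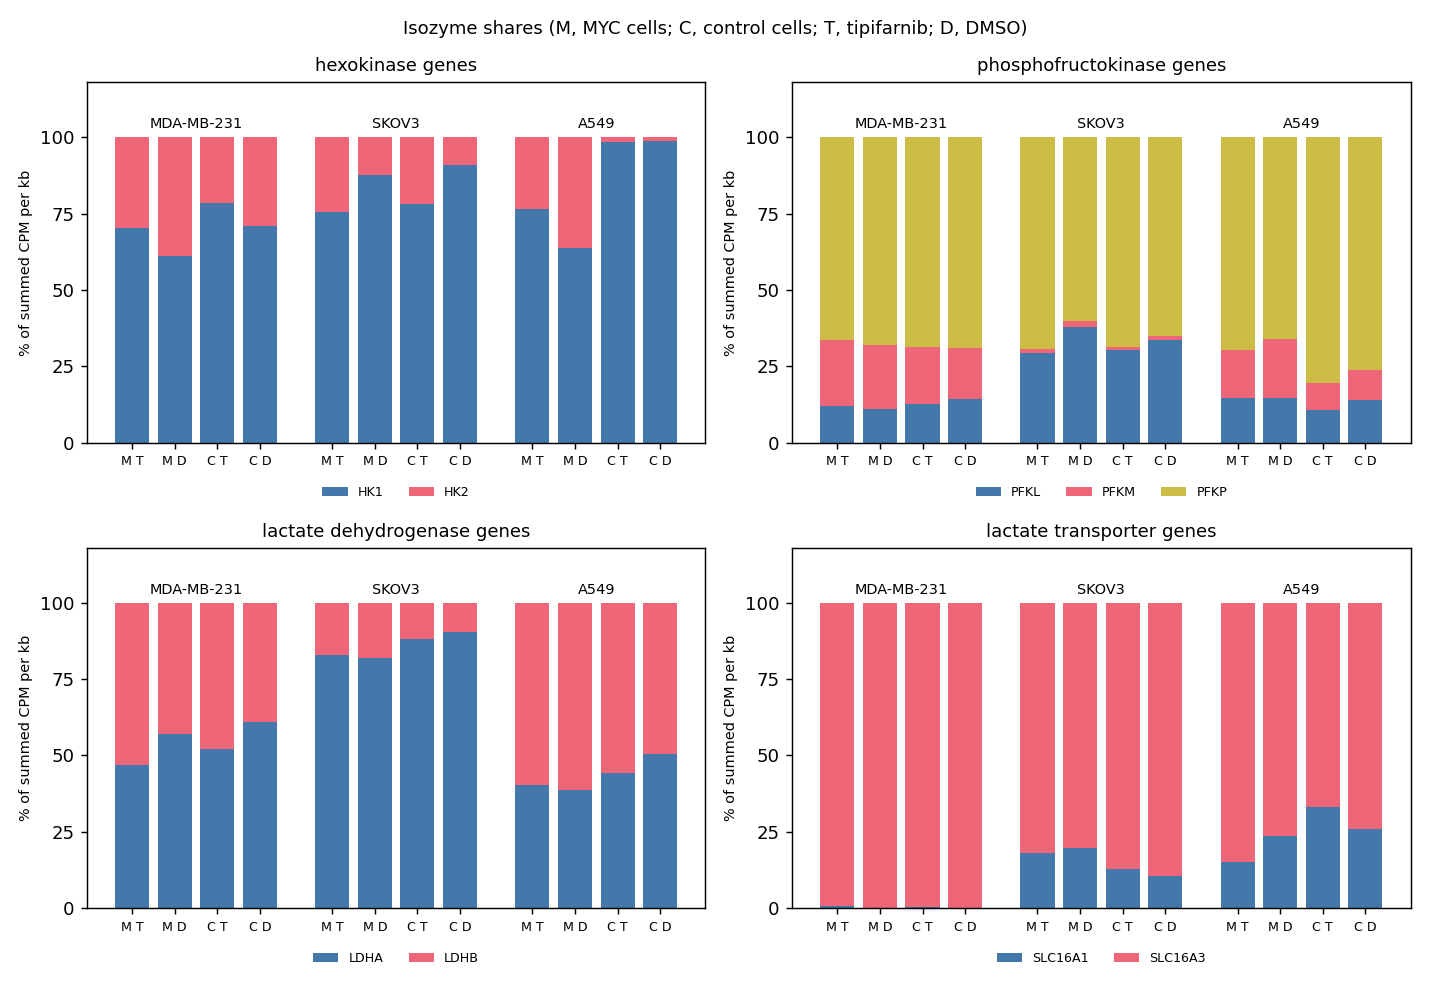
Share of each listed isozyme in each library, for hexokinases, phosphofructokinases, lactate dehydrogenases and lactate transporters. Shares are percent of the summed CPM per kb of the principal transcript over the listed members of a family. Further genes such as HKDC1 and SLC16A7 are not in the sums. Bars run by line and, within a line, MYC cells with tipifarnib, MYC cells with DMSO, control cells with tipifarnib and control cells with DMSO. PFKM takes 0.993% to 2.16% in SKOV3, SLC16A1 takes 0.0912% to 0.686% in MDA-MB-231, and the HK2 share in A549 is 23.4% and 36.4% in MYC cells, against 1.58% and 1.21% in control cells.

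The isozyme make-up shows the same differences per kb of transcript, a scale on which genes can be set side by side. The sums hold only the listed members of a family. Outside them HKDC1, a further hexokinase gene, had 71.3 to 193 CPM in SKOV3, 37.8 to 96.3 CPM in A549 and 0.431 to 14.8 CPM in MDA-MB-231. SLC16A7, a transporter of lactate and pyruvate, had 17.2 to 30.4 CPM in MDA-MB-231, above SLC16A1 in that line. The HK2 share of summed HK1 and HK2 CPM per kb in MDA-MB-231 was 29.7% in MYC cells and 21.6% in control cells with tipifarnib. With DMSO it was 38.9% in MYC cells and 29.1% in control cells. In SKOV3 its share was 24.6% in MYC cells and 21.7% in control cells with tipifarnib, against 12.4% in MYC cells and 8.96% in control cells with DMSO, and in A549 it was 23.4% in MYC cells and 1.58% in control cells with tipifarnib, against 36.4% in MYC cells and 1.21% in control cells with DMSO. The HK2 share was thus larger with tipifarnib in both kinds of SKOV3 cells and smaller with it in both kinds of MDA-MB-231 cells, and in A549 it was large in MYC cells alone. LDHB made up 39% to 53.1% of summed lactate dehydrogenase CPM per kb in MDA-MB-231, 9.57% to 18% in SKOV3 and 49.5% to 61.5% in A549. ALDOA and ENO1 made up at least 98.2% and 96.3% of the listed members of their families in every library. ALDOC and ENO2 were thus minor beside them throughout. Per kb, GAPDH, ENO1, PKM, LDHA and ALDOA were the most abundant members, with lowest values over the libraries of 901, 967, 543, 461 and 432 CPM per kb, while CA9, ANKRD37 and EGLN3 reached at most 4.32, 2.15 and 8.97 CPM per kb.

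Tipifarnib-treated cells had less transcript of 8 enzymes between glucose phosphate and lactate. Over MYC and control cells of the 3 lines (6 pairs of libraries), 9 members fell and 3 rose with tipifarnib against DMSO in the edgeR quasi-likelihood test, where 11.3% of all genes were called, 6.63% as lower and 4.66% as higher. The median log2 fold change was -0.19 over the 35 members and 0.00 over all genes tested, and 14 members (40%) had an unadjusted p under 0.05, beside 27.8% of all genes. The fallers were GPI, ALDOA and TPI1 of upper glycolysis, GAPDH, PGAM1 and PKM of lower glycolysis, both lactate dehydrogenases LDHA and LDHB, and CA9. The risers were ALDOC, PFKFB2 and NDRG1. In 11 members (31.4%) the value was lower with tipifarnib in 6 of 6 pairs, beside 11.2% of all genes tested. In 3 (PFKFB2, NDRG1 and ENO2; 8.57%) it was higher in 6 of 6, beside 8.49% of all genes. The 4 glycolytic members with the smallest p (GPI, LDHA, LDHB and TPI1) are shown with the 250 bases before their start in RefSeq (GRCh38.p14), as the promoter stretches of members that moved together. They are GPI at chr19:34364742-34364991 (plus strand), LDHA at chr11:18394313-18394562 (plus strand), LDHB at chr12:21657843-21658092 (minus strand) and TPI1 at chr12:6867281-6867530 (plus strand). Capitals mark CACGTG, the E-box that MYC can bind, and ACGTG and GCGTG, the cores of the HIF response element, on either strand; a CACGTG holds an ACGTG on both strands.
GPI: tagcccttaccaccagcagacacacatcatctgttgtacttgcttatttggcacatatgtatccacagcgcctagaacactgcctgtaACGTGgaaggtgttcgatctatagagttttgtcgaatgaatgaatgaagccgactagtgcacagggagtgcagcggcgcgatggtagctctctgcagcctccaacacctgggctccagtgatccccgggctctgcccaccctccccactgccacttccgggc
LDHA: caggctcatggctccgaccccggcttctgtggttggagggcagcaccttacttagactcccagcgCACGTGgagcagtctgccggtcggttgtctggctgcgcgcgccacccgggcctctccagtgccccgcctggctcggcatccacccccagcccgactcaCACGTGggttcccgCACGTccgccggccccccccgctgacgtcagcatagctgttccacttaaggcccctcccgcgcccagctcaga
LDHB: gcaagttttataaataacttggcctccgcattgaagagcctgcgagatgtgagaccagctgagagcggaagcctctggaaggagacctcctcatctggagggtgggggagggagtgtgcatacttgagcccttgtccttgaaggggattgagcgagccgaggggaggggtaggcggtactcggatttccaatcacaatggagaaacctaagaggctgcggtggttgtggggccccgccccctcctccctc
TPI1: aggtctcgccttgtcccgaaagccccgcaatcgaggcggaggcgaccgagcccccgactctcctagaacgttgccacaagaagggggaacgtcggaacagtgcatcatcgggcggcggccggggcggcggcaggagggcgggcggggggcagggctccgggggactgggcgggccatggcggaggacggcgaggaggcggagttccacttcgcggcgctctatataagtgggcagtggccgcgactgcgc
The LDHA window holds 2 CACGTG and 5 ACGTG counted over both strands, the GPI window 1 ACGTG, and the LDHB and TPI1 windows none of the motifs. The table holds 2 windows each for LDHA, TPI1 and HK2, at different starts, and the one listed first is shown. Of the 58 windows of the 31 members found in the table, 13.8% hold CACGTG, 39.7% ACGTG and 31% GCGTG, beside 6.34%, 18.5% and 32.2% of all 35116 windows of this length. A match is a description of these letters, and no factor's binding was measured.

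In upper glycolysis, GPI, which interconverts glucose and fructose phosphates, had 296, 286 and 651 CPM in tipifarnib-treated MYC cells and 253, 242 and 480.2 CPM in tipifarnib-treated control cells, against 477, 409.6 and 1095 CPM in DMSO-treated MYC cells and 379.5, 311 and 858 CPM in DMSO-treated control cells. Both tipifarnib libraries lay below both DMSO libraries in 3 of 3 lines, while over all lines together the treatment groups overlapped. The fitted log2 fold change was -0.62 ± 0.09 (SE, edgeR adjusted p = 0.00263). TPI1, which interconverts the triose phosphates, had 386, 397 and 1063 CPM in tipifarnib-treated MYC cells and 395, 396 and 906 CPM in tipifarnib-treated control cells, against 666, 488 and 1333 CPM in DMSO-treated MYC cells and 609, 553 and 1263 CPM in DMSO-treated control cells. It was low with tipifarnib in the same manner, without overlap in any line, and fell by 0.50 ± 0.09 on the log2 scale (edgeR adjusted p = 0.00973). ALDOA, the main aldolase, had 669, 1831 and 1113 CPM in tipifarnib-treated MYC cells and 669.6, 1869 and 836 CPM in tipifarnib-treated control cells, against 998, 1850 and 1477 CPM in DMSO-treated MYC cells and 992, 2314 and 1264 CPM in DMSO-treated control cells. Its treatment groups did not overlap in MDA-MB-231 and A549, while in SKOV3 MYC cells the values were nearly equal (a tipifarnib to DMSO ratio of 0.99). The fitted change was -0.41 ± 0.11 (SE, edgeR adjusted p = 0.0429), and 53.5% of the exonic bases of ALDOA are shared with other genes in GENCODE 29. The minor aldolase ALDOC went the other way, at 14.9, 17 and 3.54 CPM in tipifarnib-treated MYC cells and 8.74, 22 and 0.864 CPM in tipifarnib-treated control cells, against 5, 7.85 and 1.01 CPM in DMSO-treated MYC cells and 5.76, 10.1 and 1.67 CPM in DMSO-treated control cells. It was higher with tipifarnib in 5 of 6 pairs, the exception being A549 control cells, and the fitted change was 0.99 ± 0.27 (SE, edgeR adjusted p = 0.0409), on few counts in A549. HK1, HK2, PFKL, PFKM and PFKP did not pass over both genotypes, at log2 fold changes of 0.07, 0.02, -0.17, -0.29 and 0.04.

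In lower glycolysis, PGAM1, a phosphoglycerate mutase, had 368, 223 and 453 CPM in tipifarnib-treated MYC cells and 380.4, 233 and 336 CPM in tipifarnib-treated control cells, against 811, 281 and 499 CPM in DMSO-treated MYC cells and 782, 323 and 584 CPM in DMSO-treated control cells. The groups were apart in every line, most widely in MDA-MB-231, where the ratios of tipifarnib to DMSO were 0.454 in MYC cells and 0.487 in control cells, and the fitted change was -0.65 ± 0.13 (SE, edgeR adjusted p = 0.0149). PKM, the pyruvate kinase of most tissues, had 1475, 2406 and 2403 CPM in tipifarnib-treated MYC cells and 1871, 2632 and 2478 CPM in tipifarnib-treated control cells, against 2578, 2914 and 2589 CPM in DMSO-treated MYC cells and 2821, 3845 and 3612 CPM in DMSO-treated control cells. All 6 pairs were lower with tipifarnib, and within each line the groups did not overlap (log2 fold change -0.48 ± 0.10 SE, edgeR adjusted p = 0.0157). GAPDH, often used as a reference transcript, had 1214, 1306 and 3069 CPM in tipifarnib-treated MYC cells and 1302, 1224 and 2389 CPM in tipifarnib-treated control cells, against 1859, 1376 and 3233 CPM in DMSO-treated MYC cells and 1781, 1689 and 3283 CPM in DMSO-treated control cells. It too was below DMSO in 6 of 6 pairs without overlap within a line, with a fitted change of -0.36 ± 0.10 (SE, edgeR adjusted p = 0.0458); under DESeq2 size factors it was -0.34 with an adjusted p of 0.0545. ENO1 and PGK1 did not pass, at -0.24 ± 0.11 (SE, edgeR adjusted p = 0.177) and -0.20 ± 0.12 (SE, edgeR adjusted p = 0.291). ENO2, the neuronal enolase, was higher with tipifarnib in 6 of 6 pairs and missed the threshold, at 0.58 ± 0.18 (SE, edgeR adjusted p = 0.0719).

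LDHA, which makes lactate from pyruvate, had 952, 2401 and 1549 CPM in tipifarnib-treated MYC cells and 886, 2629 and 1271 CPM in tipifarnib-treated control cells, against 1924, 3490 and 1766 CPM in DMSO-treated MYC cells and 1828, 4693 and 2144 CPM in DMSO-treated control cells. The MDA-MB-231 pairs were lowest relative to DMSO, with ratios of 0.495 in MYC cells and 0.485 in control cells, and within every line both tipifarnib libraries lay below both DMSO libraries. The fitted change was -0.73 ± 0.12 (SE, edgeR adjusted p = 0.00588). LDHB had 796, 366 and 1695 CPM in tipifarnib-treated MYC cells and 600.5, 263 and 1190 CPM in tipifarnib-treated control cells, against 1074, 565 and 2085 CPM in DMSO-treated MYC cells and 863, 367 and 1555 CPM in DMSO-treated control cells. It was lower with tipifarnib in 6 of 6 pairs, and the groups were apart in MDA-MB-231 and SKOV3 but overlapped in A549 (log2 fold change -0.46 ± 0.08 SE, edgeR adjusted p = 0.00804); 33.4% of its exonic bases are shared with another gene. The lactate transporters SLC16A1 and SLC16A3 (MCT4, the lactate exporter of glycolytic cells) did not pass over both genotypes, at 0.30 ± 0.21 (SE, edgeR adjusted p = 0.405) and -0.19 ± 0.30 (SE, edgeR adjusted p = 0.734). The glucose transporters SLC2A1 (GLUT1) and SLC2A3 did not either, at 0.14 ± 0.16 (SE, edgeR adjusted p = 0.639) and 0.94 ± 0.53 (SE, edgeR adjusted p = 0.287).

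Summed over the 17 glycolytic and lactate dehydrogenase genes, transcript was lower with tipifarnib in all 6 pairs. The sum was 10249 CPM in MYC cells and 10271 CPM in control cells of MDA-MB-231 with tipifarnib, against 15362 and 15045 CPM with DMSO. In SKOV3 it was 14295 CPM in MYC cells and 14520 CPM in control cells with tipifarnib, against 15780 and 19266 CPM with DMSO. In A549 it was 16170 CPM in MYC cells and 13345 CPM in control cells with tipifarnib, against 18823 and 18865 CPM with DMSO. The ratios of tipifarnib to DMSO were 0.667 and 0.683 in MDA-MB-231, 0.906 and 0.754 in SKOV3, and 0.859 and 0.707 in A549, for MYC cells and then control cells. The sum is carried by its few most abundant genes and was not tested.

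Among the regulators of flux, PFKFB2, which makes and removes the sugar bisphosphate that activates phosphofructokinase, had 45.3, 28.4 and 32.5 CPM in tipifarnib-treated MYC cells and 43.2, 36.9 and 36.2 CPM in tipifarnib-treated control cells, against 28, 16.9 and 23.8 CPM in DMSO-treated MYC cells and 22.8, 21.2 and 28.4 CPM in DMSO-treated control cells. It was higher with tipifarnib in 6 of 6 pairs and did not overlap within any line (log2 fold change 0.66 ± 0.12 SE, edgeR adjusted p = 0.00982). Its relatives PFKFB3 and PFKFB4 and the pyruvate dehydrogenase kinases PDK1 and PDK3 did not pass, with log2 fold changes of -0.26, 0.31, 0.00 and -0.44.

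The 9 genes of oxygen sensing and hypoxia did not move as a block with tipifarnib. 1 rose, 1 fell and 7 did not pass. NDRG1, a stress-responsive gene that hypoxia is known to induce, had 197, 809 and 86.9 CPM in tipifarnib-treated MYC cells and 205, 576 and 84.9 CPM in tipifarnib-treated control cells, against 49.3, 58 and 63.8 CPM in DMSO-treated MYC cells and 94.5, 142 and 72.2 CPM in DMSO-treated control cells. All 6 pairs were higher with tipifarnib, SKOV3 by far the most, with ratios of 14.0 in MYC cells and 4.05 in control cells, while in A549 they were 1.36 and 1.18. The fitted change was 1.59 ± 0.38 (SE, edgeR adjusted p = 0.0265). CA9, a carbonic anhydrase of the cell surface and a strict HIF1A target, went down on very few counts. It had 5, 12 and 6 counts in tipifarnib-treated MYC cells and 0, 5 and 7 in tipifarnib-treated control cells, against 17, 187 and 31 in DMSO-treated MYC cells and 8, 27 and 34 in DMSO-treated control cells. Every tipifarnib library was below its DMSO partner, and the fitted change was -2.76 ± 0.51 (SE, edgeR adjusted p = 0.00973). With 0 counts in MDA-MB-231 control cells, that pair allows only a bound, at least 2.8-fold lower against a floor of 3 counts in the library. The tipifarnib and DMSO groups did not overlap within a line, and 38.5% of CA9's exonic bases are shared with another gene. HIF1A, the oxygen-regulated subunit of the factor, did not pass (log2 fold change -0.21 ± 0.14 SE, edgeR adjusted p = 0.37), and neither did EGLN1, EGLN3, BNIP3, ADM, ANKRD37 and P4HA1, at log2 fold changes of -0.51 to 0.35.

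**Figure D2:**
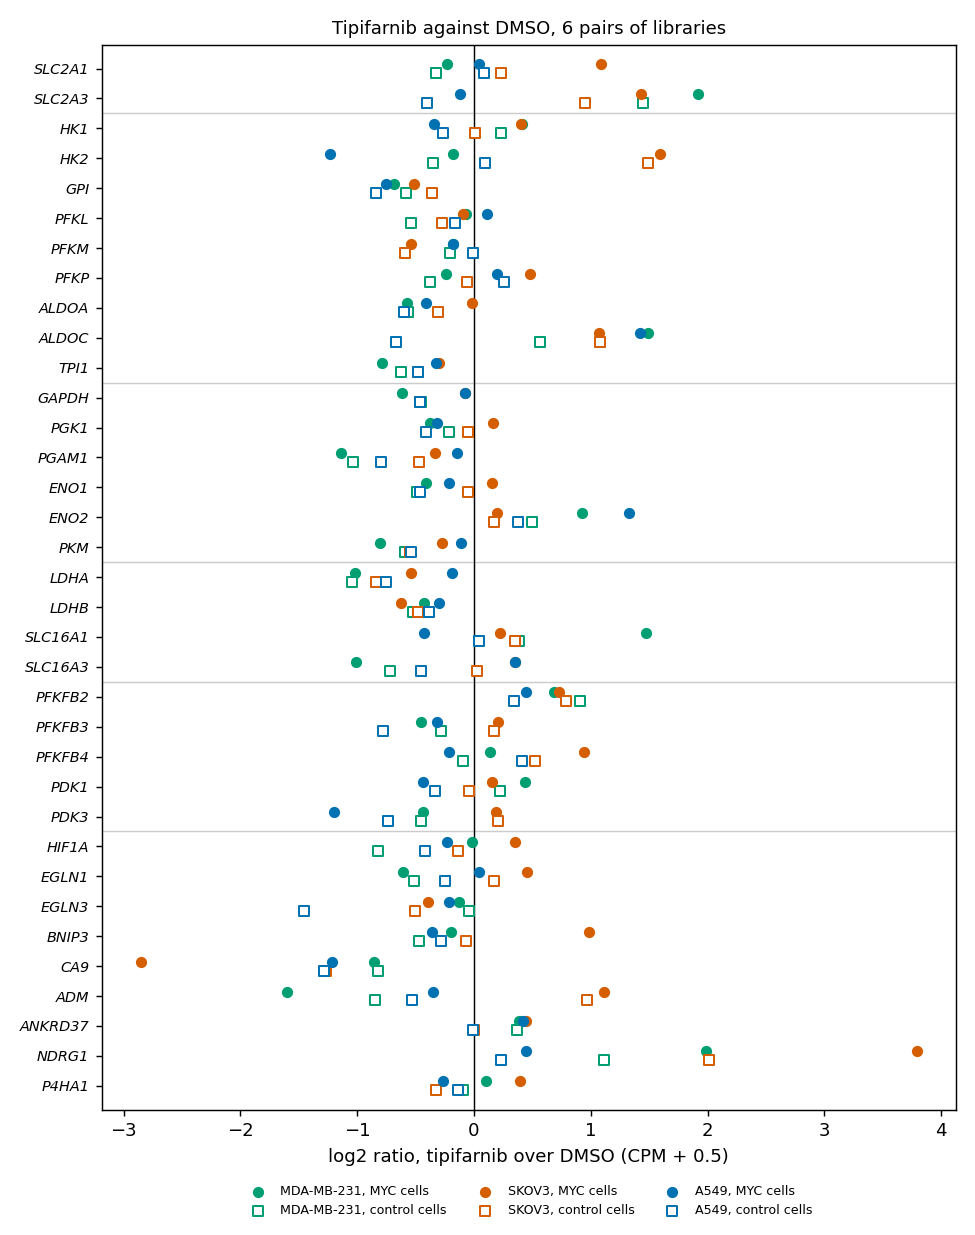
Log2 ratio of tipifarnib over DMSO (CPM + 0.5) for each of the 35 members in each of 6 pairs of libraries; filled circles are MYC cells, open squares control cells, colours the lines, and grey lines part the roles. GPI, TPI1, PGAM1, PKM, LDHA and LDHB lie left of 0 in all 6 pairs, while NDRG1 and PFKFB2 lie right of it in all 6.

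Both pairs of 1 line share that line. The model counts them as independent. With the libraries of a line summed into 3 pairs 0 members passed (91 of all genes did). Without MDA-MB-231, SKOV3 or A549 the members called were 0, 6 and 7, of which 0, 6 and 6 were among the 12. For the fits without 1 line the share of all genes called is not given here. Their counts are therefore no result about the members. Several folds moved little. Over these fits GPI stayed at -0.71 to -0.53, LDHB at -0.51 to -0.41, PFKFB2 at 0.60 to 0.80 and CA9 at -3.08 to -2.35. NDRG1 was at 0.94 without SKOV3 and PGAM1 at -0.42 without MDA-MB-231.

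Within a line, the model with each line's own effects called 18 members in MDA-MB-231 (5 higher, 13 lower), 12 in SKOV3 (7 higher, 5 lower) and 7 in A549 (1 higher, 6 lower) for tipifarnib against DMSO. Of all genes 22.7% were called in MDA-MB-231 (10.6% higher, 12.1% lower), 14% in SKOV3 (6.57% higher, 7.48% lower) and 8.03% in A549 (3.56% higher, 4.47% lower). The median log2 fold change of the members was -0.31 in MDA-MB-231, 0.19 in SKOV3 and -0.33 in A549, beside 0.00, -0.02 and 0.00 over all genes. GPI and CA9 passed in all 3 lines, and 11 members passed in none. CA9 was close to the threshold in A549, with an adjusted p of 0.0478 by edgeR, 0.0509 with DESeq2 size factors and 0.0516 by limma-voom. HK2 and ADM passed in opposite directions in different lines.

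In MDA-MB-231 9 enzymes between glucose phosphate and lactate fell with tipifarnib: GPI, ALDOA, TPI1, GAPDH, PGAM1, ENO1, PKM, LDHA and LDHB fell by 0.45 (ENO1) to 1.09 (PGAM1) on the log2 scale. The lactate exporter SLC16A3 fell as well, with 244 CPM in tipifarnib-treated MYC cells and 359.8 CPM in tipifarnib-treated control cells, against 493 CPM in DMSO-treated MYC cells and 591 CPM in DMSO-treated control cells (log2 fold change -0.86 ± 0.18 SE, edgeR adjusted p = 0.00926). SLC2A3 rose, with 89.5 CPM in tipifarnib-treated MYC cells and 76.4 CPM in tipifarnib-treated control cells, against 23.3 CPM in DMSO-treated MYC cells and 27.8 CPM in DMSO-treated control cells. Both tipifarnib libraries lay clear of both DMSO libraries, and the change was 1.70 ± 0.16 (SE, edgeR adjusted p = 0.000373). SLC16A1 rose by 1.31 ± 0.31 on the log2 scale, with 3.4 CPM in tipifarnib-treated MYC cells and 1.6 CPM in tipifarnib-treated control cells, against 0.905 CPM in DMSO-treated MYC cells and 1.1 CPM in DMSO-treated control cells (edgeR adjusted p = 0.0164; under limma-voom the adjusted p was 0.0947). PFKFB2, ENO2 and NDRG1 also rose, while EGLN1, the main oxygen-sensing hydroxylase, ADM and CA9 fell. The ADM libraries had 10.0 CPM in tipifarnib-treated MYC cells and 21.4 CPM in tipifarnib-treated control cells, against 31.3 CPM in DMSO-treated MYC cells and 38.9 CPM in DMSO-treated control cells, apart from each other (log2 fold change -1.25 ± 0.19 SE, edgeR adjusted p = 0.00208).

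In SKOV3 HK2 and both glucose transporters rose with tipifarnib. HK2, the inducible hexokinase bound to mitochondria, had 121 CPM in tipifarnib-treated MYC cells and 95.6 CPM in tipifarnib-treated control cells, against 39.8 CPM in DMSO-treated MYC cells and 33.8 CPM in DMSO-treated control cells. Both tipifarnib libraries lay above both DMSO libraries, at ratios of 3.03 in MYC cells and 2.83 in control cells (log2 fold change 1.55 ± 0.19 SE, edgeR adjusted p = 0.00123). SLC2A1 had 363 CPM in tipifarnib-treated MYC cells and 432 CPM in tipifarnib-treated control cells, against 171 CPM in DMSO-treated MYC cells and 367 CPM in DMSO-treated control cells, with a ratio of 2.12 in MYC cells and 1.18 in control cells (log2 fold change 0.66 ± 0.18 SE, edgeR adjusted p = 0.0344); the treatment groups overlapped. SLC2A3 had 19 counts in tipifarnib-treated MYC cells and 12 in tipifarnib-treated control cells, against 0 in both DMSO libraries. That is at least 10.7-fold higher with tipifarnib, against a floor of 3 counts over the DMSO libraries, at levels under 1 CPM. ADM had 15.1 CPM in tipifarnib-treated MYC cells and 30.3 CPM in tipifarnib-treated control cells, against 6.73 CPM in DMSO-treated MYC cells and 15.2 CPM in DMSO-treated control cells, higher with tipifarnib in both pairs (log2 fold change 1.07 ± 0.19 SE, edgeR adjusted p = 0.00617). NDRG1, PFKFB2 and PFKFB4 rose too, while GPI, PFKM, LDHA, LDHB and CA9 fell, LDHA by 0.69 and PFKM by 0.60 on the log2 scale.

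In A549, at the lower dose, GPI, ALDOA, PFKFB3, PDK3, CA9 and HK2 fell and ENO2 rose. PDK3 had 4.36 CPM in tipifarnib-treated MYC cells and 5.59 CPM in tipifarnib-treated control cells, against 10.7 CPM in DMSO-treated MYC cells and 9.63 CPM in DMSO-treated control cells, lower in both pairs (log2 fold change -1.03 ± 0.21 SE, edgeR adjusted p = 0.0215). PFKFB3, the member of its family with the highest kinase activity, had 227 CPM in tipifarnib-treated MYC cells and 323 CPM in tipifarnib-treated control cells, against 282 CPM in DMSO-treated MYC cells and 555 CPM in DMSO-treated control cells (log2 fold change -0.55 ± 0.13 SE, edgeR adjusted p = 0.0363), lower in both pairs, though the treatment groups overlapped. The MYC row of A549 had 506 and 912 CPM in MYC cells with tipifarnib and DMSO, and 143.5 and 105 CPM in control cells. Its part in the HK2 values was not tested. HK2 had 45.7 CPM in tipifarnib-treated MYC cells and 1.68 CPM in tipifarnib-treated control cells, against 108 CPM in DMSO-treated MYC cells and 1.54 CPM in DMSO-treated control cells. HK2 was thus lower with tipifarnib in MYC cells and not in control cells. Its fitted change was -0.91 ± 0.24 (SE, edgeR adjusted p = 0.0446), and it became 0.12 without either MYC library of A549, with adjusted p of 0.913 and 0.916.

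Few of these calls within lines passed when 1 library was left out, a fit in which that line has no spread of its own. Without 1 library of a line the members called were 2 to 4 in MDA-MB-231, 2 to 8 in SKOV3 and 4 in A549, the lowest counts in MDA-MB-231 and SKOV3 coming from leaving out either of their MYC libraries. The calls that held in every such fit were SLC2A3 in MDA-MB-231, HK2 and NDRG1 in SKOV3, and GPI in A549. The share of all genes called in these fits is not given here, so the counts are no result about the members. Some folds hardly moved. In MDA-MB-231 LDHA stayed at -1.05 to -1.02, ALDOA at -0.58 to -0.56, GPI at -0.69 to -0.58 and PGAM1 at -1.14 to -1.04. Others depended on the pair kept. In MDA-MB-231 SLC16A1 was at 0.53 to 1.90 and CA9 at -6.21 to -1.99. SLC2A1 in SKOV3 was at 0.23 to 1.09. In A549 ENO2 was at 0.37 to 1.35 and PFKFB3 at -0.79 to -0.31.

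The response to tipifarnib was compared between lines directly. 6 members differed between MDA-MB-231 and SKOV3, all of them lower in MDA-MB-231, beside 7.34% of all genes called, 3.85% higher and 3.49% lower. 4 members differed between SKOV3 and A549, all higher in SKOV3 (3.4% of all genes called, 1.42% higher and 1.98% lower), and 1 between MDA-MB-231 and A549, higher in MDA-MB-231 (1.73% called, 0.854% higher and 0.872% lower). The doses differed in the comparisons with A549. For ADM the log2 fold change in MDA-MB-231 minus that in SKOV3 was -2.32 ± 0.27 (SE, edgeR adjusted p = 0.00376), as ADM fell in MDA-MB-231 and rose in SKOV3. For HK2 the difference was -1.82 ± 0.27 (SE, edgeR adjusted p = 0.00892) for MDA-MB-231 minus SKOV3 and 2.47 ± 0.31 (SE, edgeR adjusted p = 0.00798) for SKOV3 minus A549. The change of SLC2A3 in MDA-MB-231 exceeded that in A549 by 1.96 ± 0.22 (SE, edgeR adjusted p = 0.00632); its differences to SKOV3 also passed but depend on the prior count, since SKOV3 had 0 counts in DMSO. EGLN1, SLC16A3 and SLC2A1 had lower changes in MDA-MB-231 than in SKOV3, with differences of -0.88 (adjusted p = 0.0211), -1.05 (adjusted p = 0.0396) and -0.94 (adjusted p = 0.0492) on the log2 scale. NDRG1 changed more in SKOV3 than in A549, by 2.56 ± 0.49 (SE, edgeR adjusted p = 0.0305). Of these differences, in the fits run, only ADM between MDA-MB-231 and SKOV3 passed in every fit without 1 library. The share of all genes called in these fits is not given here, so the counts that follow are no result about the members. For MDA-MB-231 minus SKOV3 the count was 1 without any single library of MDA-MB-231 and 2 without either MYC library of SKOV3. For SKOV3 minus A549 it was 1 without either MYC library of SKOV3 or the DMSO-treated MYC library of A549, and 2 without the tipifarnib-treated MYC library of A549. For MDA-MB-231 minus A549 it was 0 without any single library of MDA-MB-231 and 5 without either control library of A549.

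**Figure D3:**
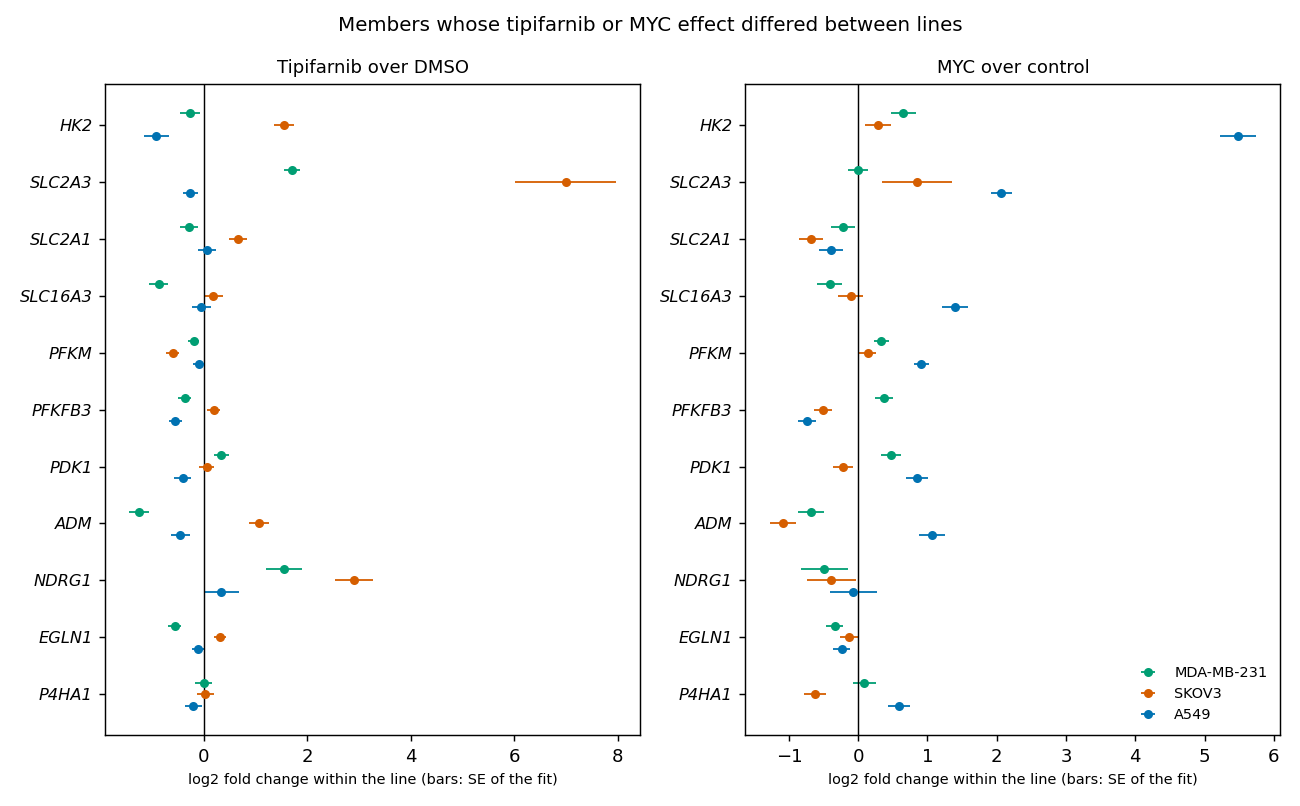
Log2 fold change within each line for tipifarnib over DMSO (left) and MYC over control (right), for 11 members whose effect differed between lines; points are fits, bars the SE of the fit. HK2 stands at 1.55 in SKOV3 for tipifarnib and at 5.48 in A549 for MYC; the SLC2A3 point of SKOV3 at 6.99 rests on 0 counts in DMSO and depends on the prior count.

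Across all lines, 3 members passed for MYC cells against control cells, a share near that of all genes called. Over both treatments (6 pairs), LDHB and GPI were higher and ENO2 lower in MYC cells than in control cells by the edgeR quasi-likelihood test, where 7.35% of all genes were called, 4.5% as higher and 2.84% as lower. That is 3 of 35 members, with 8 (22.9%) at an unadjusted p under 0.05 beside 24.3% of all genes, and the median log2 fold change was 0.02 over the members and 0.00 over all genes. LDHB had 796, 366 and 1695 CPM in MYC cells with tipifarnib and 1074, 565 and 2085 CPM in MYC cells with DMSO, against 600.5, 263 and 1190 CPM in control cells with tipifarnib and 863, 367 and 1555 CPM in control cells with DMSO. It was higher in MYC cells in 6 of 6 pairs, with ratios from 1.25 to 1.54, though the groups overlapped within MDA-MB-231 and SKOV3 with both treatments pooled (log2 fold change 0.46 ± 0.08 SE, edgeR adjusted p = 0.0154). GPI was higher in 6 of 6 pairs by ratios of 1.17 to 1.35 (log2 fold change 0.33 ± 0.09 SE, edgeR adjusted p = 0.0458), on the CPM values given above, and it did not pass with DESeq2 size factors (adjusted p = 0.0529) or without the low count filter (adjusted p = 0.0716). ENO2 had 84.4, 16.1 and 47.1 CPM in MYC cells with tipifarnib and 44.3, 13.9 and 18.4 CPM in MYC cells with DMSO, against 96.3, 25.9 and 90.0 CPM in control cells with tipifarnib and 67.9, 23 and 69.4 CPM in control cells with DMSO. It was lower in MYC cells in 6 of 6 pairs, farthest in A549 with DMSO, where the ratio was 0.266 (log2 fold change -0.82 ± 0.19 SE, edgeR adjusted p = 0.0304). LDHA, named above as a known MYC target, had a fitted change of -0.05 ± 0.12 (SE, edgeR adjusted p = 0.832). Of the members 4 were higher and 4 lower in MYC cells in 6 of 6 pairs (11.4% each), beside 12.1% and 9.51% of all genes. PFKM was higher in 6 of 6 pairs without passing (log2 fold change 0.47 ± 0.14 SE, edgeR adjusted p = 0.0699), and PFKFB4, SLC2A1 and PKM were lower in 6 of 6 without passing, at log2 fold changes of -0.55, -0.41 and -0.25. None of the 9 oxygen sensing and hypoxia genes passed the edgeR test, and 0 of them had an unadjusted p under 0.05. By limma-voom and by DESeq2 6 members passed. Without any 1 line, or with the libraries of a line summed into 3 pairs, 0 members passed. For these alternatives the share of all genes called is not given here, so the counts are no result about the members.

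**Figure D4:**
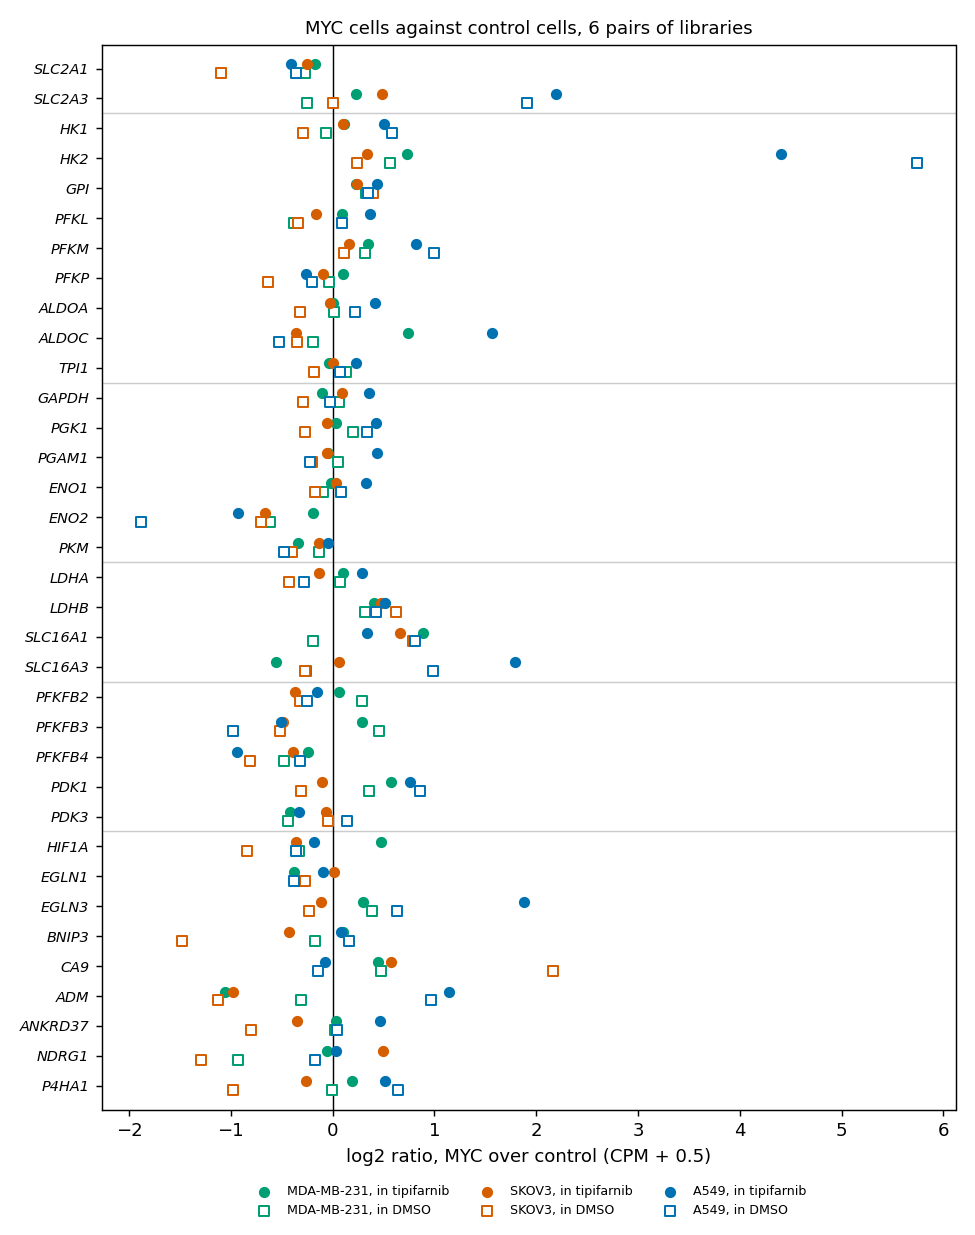
Log2 ratio of MYC over control cells (CPM + 0.5) for each of the 35 members in each of 6 pairs of libraries; filled circles are tipifarnib, open squares DMSO, and colours the lines. LDHB and GPI lie right of 0 and ENO2 left of it in all 6 pairs, and HK2 in A549 stands far to the right of every other point.

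The members that passed for MYC differed by line. In A549, 15 members passed (13 higher, 2 lower), in SKOV3 8 (3 higher, 5 lower) and in MDA-MB-231 0, beside 17.7% of all genes in A549 (9.94% higher, 7.8% lower), 9.08% in SKOV3 (4.58% higher, 4.5% lower) and 1.64% in MDA-MB-231 (0.813% higher, 0.831% lower). In MDA-MB-231 9 members (25.7%) had an unadjusted p under 0.05, beside 18.3% of all genes, and limma-voom called 1 member and DESeq2 2. For limma-voom and DESeq2 the share of all genes called is not given here, so their counts are no result about the members. LDHB and SLC16A1 rose in A549 and SKOV3, while ADM and P4HA1 rose in A549 and fell in SKOV3.

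HK2 in A549 was the largest of these changes. It had 45.7 and 108 CPM in MYC cells with tipifarnib and DMSO, against 1.68 and 1.54 CPM in control cells with tipifarnib and DMSO. HK2 was thus low in A549 control cells, and MYC cells were 27.1 times as high with tipifarnib and 70.3 times as high with DMSO (log2 fold change 5.48 ± 0.26 SE, edgeR adjusted p = 5.93e-06). In MDA-MB-231 it had 218 and 247 CPM in MYC cells with tipifarnib and DMSO, against 130.5 and 166 CPM in control cells with tipifarnib and DMSO. In SKOV3 it had 121 and 39.8 CPM in MYC cells with tipifarnib and DMSO, against 95.6 and 33.8 CPM in control cells with tipifarnib and DMSO. MYC cells were above their control partner in all 6 pairs, by ratios of 1.18 to 1.67 outside A549, and over both treatments HK2 did not pass (log2 fold change 1.76 ± 0.84 SE, edgeR adjusted p = 0.232). The promoter stretch of HK2, chosen after its values were seen, is the 250 bases before its start at chr2:74833877-74834126 (plus strand, GRCh38.p14, RefSeq), with capitals as above.
HK2: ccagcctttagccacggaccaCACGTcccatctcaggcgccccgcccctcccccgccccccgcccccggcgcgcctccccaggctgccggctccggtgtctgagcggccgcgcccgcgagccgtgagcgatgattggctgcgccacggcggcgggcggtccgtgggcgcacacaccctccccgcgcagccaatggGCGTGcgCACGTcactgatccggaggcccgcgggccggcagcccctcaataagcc
It holds 2 ACGTG and 1 GCGTG and no CACGTG in this window.

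In A549 MYC cells the glucose transporter SLC2A3 and both lactate transporters rose. SLC2A3 had 123 and 134 CPM in MYC cells with tipifarnib and DMSO, against 26.7 and 35.3 CPM in control cells with tipifarnib and DMSO. These groups did not overlap (log2 fold change 2.07 ± 0.16 SE, edgeR adjusted p = 0.00011). SLC2A3 made up 40.8% and 43.5% of summed SLC2A1 and SLC2A3 CPM per kb in MYC cells with tipifarnib and DMSO. In control cells its share was 10.1% and 13.6%. SLC2A1 had 168 and 163 CPM in MYC cells with tipifarnib and DMSO, against 223 and 210.1 CPM in control cells with tipifarnib and DMSO, lower in both pairs without passing (log2 fold change -0.39 ± 0.17 SE, edgeR adjusted p = 0.161). SLC16A3 had 364 and 285 CPM in MYC cells with tipifarnib and DMSO, against 105 and 144 CPM in control cells with tipifarnib and DMSO (log2 fold change 1.39 ± 0.19 SE, edgeR adjusted p = 0.00127), and SLC16A1 was higher by 0.58 ± 0.18 (SE, edgeR adjusted p = 0.0481). PFKM, HK1, GPI and PGK1 rose by 0.91, 0.55, 0.40 and 0.38 on the log2 scale. Among hypoxia genes EGLN3, ADM and P4HA1 rose, by 1.28 (adjusted p = 0.0169), 1.07 (adjusted p = 0.00443) and 0.59 (adjusted p = 0.0351), and so did PDK1, by 0.85 (adjusted p = 0.00599). The ratio of EGLN3 was 3.93 with tipifarnib and 1.57 with DMSO. ENO2 and PFKFB3 fell, PFKFB3 with 227 and 282 CPM in MYC cells with tipifarnib and DMSO, against 323 and 555 CPM in control cells with tipifarnib and DMSO (log2 fold change -0.74 ± 0.13 SE, edgeR adjusted p = 0.00505). Without 1 library of A549 8 or 9 members passed, 7 or 9 of them among the 15, and ADM, ENO2, HK2, PFKM, SLC16A3 and SLC2A3 passed in every such fit. Without either tipifarnib library EGLN3 no longer passed, at 0.64 and 0.65, and without either DMSO library it was at 1.98. SLC16A1 was at 0.35 to 0.81 and ENO2 at -1.92 to -0.93. As the share of all genes called without 1 library is not given here, these counts are no result about the members.

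In SKOV3 MYC cells 3 of the 9 oxygen sensing and hypoxia genes fell and 1 rose. ADM had 15.1 and 6.73 CPM in MYC cells with tipifarnib and DMSO, against 30.3 and 15.2 CPM in control cells with tipifarnib and DMSO (log2 fold change -1.09 ± 0.19 SE, edgeR adjusted p = 0.01). BNIP3, a receptor for the removal of mitochondria, had 49.9 and 24.9 CPM in MYC cells with tipifarnib and DMSO, against 67.3 and 70.4 CPM in control cells with tipifarnib and DMSO (log2 fold change -0.96 ± 0.21 SE, edgeR adjusted p = 0.0233). Its many pseudogene rows held 9.72% of the summed counts of BNIP3 and those rows. P4HA1, a collagen prolyl hydroxylase subunit, had 93 and 70.5 CPM in MYC cells with tipifarnib and DMSO, against 112 and 140.0 CPM in control cells with tipifarnib and DMSO (log2 fold change -0.63 ± 0.16 SE, edgeR adjusted p = 0.0426). All MYC libraries of these genes lay below all control libraries of the line. SLC2A1 and PFKFB3 fell by 0.68 and 0.50 on the log2 scale, and LDHB, SLC16A1 and CA9 rose. CA9 had 12 and 187 counts in MYC cells with tipifarnib and DMSO, against 5 and 27 in control cells (log2 fold change 2.24 ± 0.55 SE, edgeR adjusted p = 0.0353; under DESeq2 the adjusted p was 0.101). Without the DMSO-treated MYC or control library of SKOV3 0 members passed, and without either tipifarnib library 4 did, among them BNIP3, P4HA1 and SLC2A1 of the 8. These 3 had folds of -0.43, -0.26 and -0.25 without a DMSO library. LDHB (0.48 to 0.62), SLC16A1 (0.66 to 0.79) and PFKFB3 (-0.52 to -0.49) moved little in fold. They and ADM passed in none of these fits. CA9 passed in none of them either, at 1.44 without either DMSO library and 2.57 without either tipifarnib library. As the share of all genes called in these fits is not given here, the counts are no result about the members.

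The difference of the MYC effect between lines passed for 6 members between SKOV3 and A549 (2.56% of all genes called, 1.07% higher and 1.49% lower), all lower in SKOV3, for 5 between MDA-MB-231 and A549 (2.3% called, 1.16% higher and 1.14% lower), 4 of them lower in MDA-MB-231, and for 0 between MDA-MB-231 and SKOV3 (0.281% called, 0.181% higher and 0.0994% lower). In this last comparison 6 members (17.1%) had an unadjusted p under 0.05, beside 11% of all genes, DESeq2 called 1, and limma-voom 0. The share of all genes called by DESeq2 and limma-voom is not given here, so their counts are no result about the members. HK2 differed by -4.83 ± 0.32 (SE, edgeR adjusted p = 0.000136) for MDA-MB-231 minus A549 and by -5.20 ± 0.32 (SE, edgeR adjusted p = 8.55e-05) for SKOV3 minus A549. SLC2A3 differed by -2.07 ± 0.22 (SE, edgeR adjusted p = 0.00257) for MDA-MB-231 minus A549, and ADM by -2.15 ± 0.27 (SE, edgeR adjusted p = 0.00346) for SKOV3 minus A549 and -1.76 ± 0.26 (SE, edgeR adjusted p = 0.00966) for MDA-MB-231 minus A549. SLC16A3 differed by -1.80 (adjusted p = 0.00776) for MDA-MB-231 minus A549 and -1.50 (adjusted p = 0.0174) for SKOV3 minus A549. The remaining differences were those of P4HA1, PDK1 and PFKM for SKOV3 minus A549, at -1.21 (adjusted p = 0.0244), -1.06 (adjusted p = 0.0322) and -0.77 (adjusted p = 0.0399), and of PFKFB3 for MDA-MB-231 minus A549, at 1.12 (adjusted p = 0.0171). HK2 passed in every fit without 1 library in both comparisons, SLC2A3 in that with MDA-MB-231 and ADM in that with SKOV3. The share of all genes called in these fits is not given here, so the counts that follow are no result about the members. Without the DMSO-treated MYC or control library of SKOV3 2 members passed for SKOV3 minus A549, and for MDA-MB-231 minus A549 2 passed without either tipifarnib library and 3 without either DMSO library of MDA-MB-231.

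**Figure D5:**
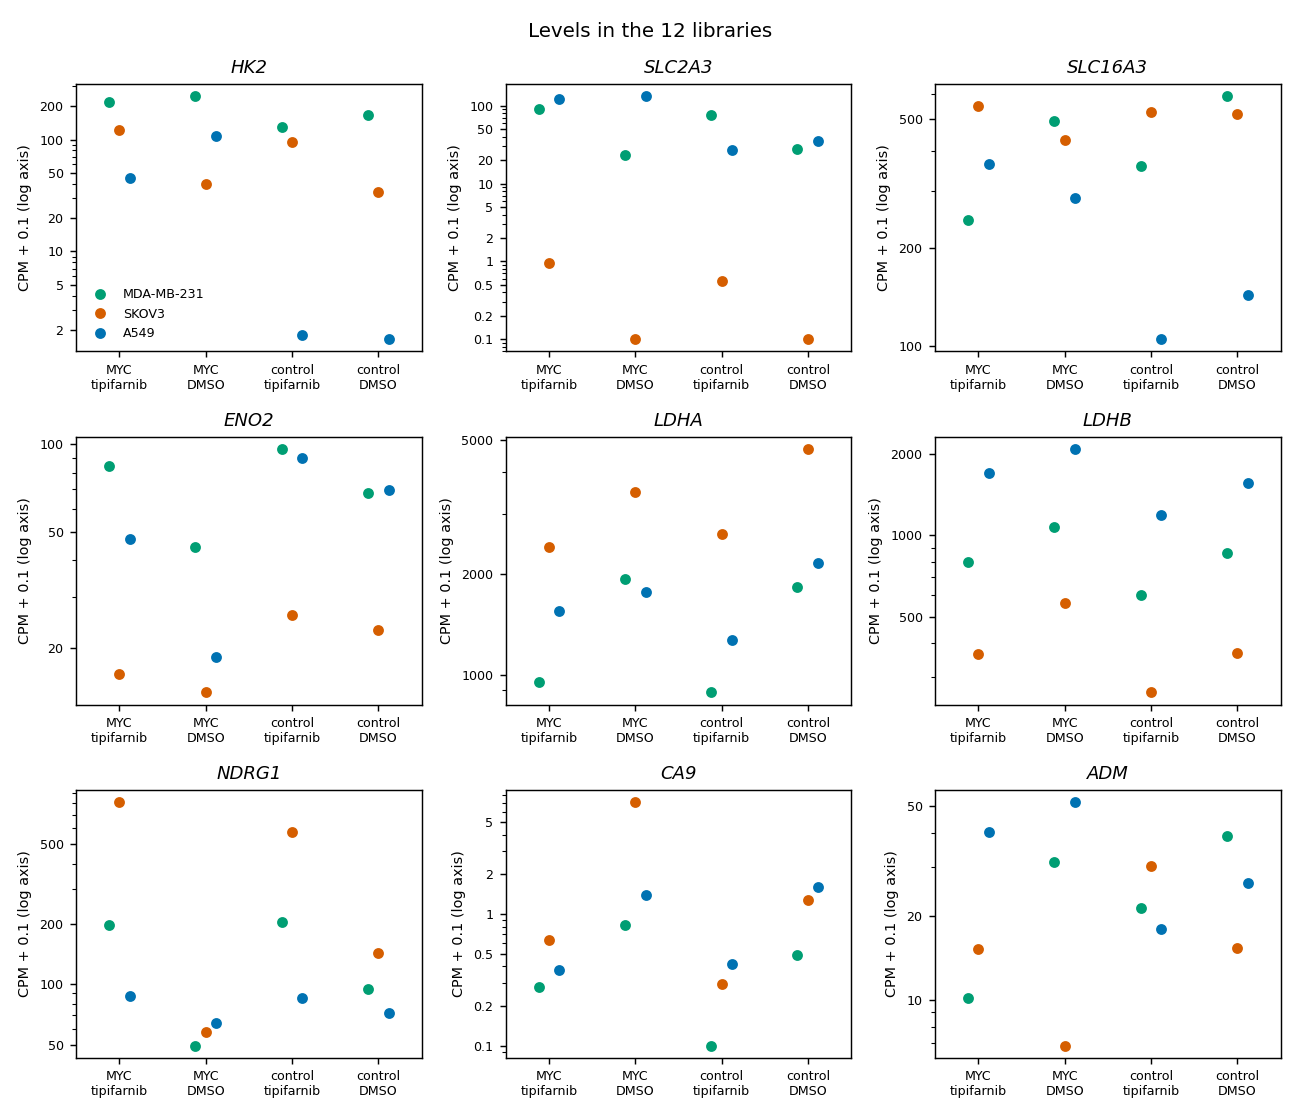
CPM + 0.1 on a log axis in each of the 12 libraries for 9 members; the 4 groups run from MYC cells with tipifarnib to control cells with DMSO, and colours are the lines. HK2 in A549 is at 45.7 and 108 CPM in MYC cells, against 1.68 and 1.54 CPM in control cells, and NDRG1 in SKOV3 is at 809 and 576 CPM with tipifarnib, against 58.0 and 142 CPM with DMSO.

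Whether MYC altered the response to tipifarnib, the question named in the study's design, was tested as the interaction (the tipifarnib change in MYC cells minus that in control cells). The MYC row itself had tipifarnib to DMSO ratios of 2.25, 1.24 and 0.555 in MYC cells and 2.36, 2.06 and 1.37 in control cells. Within lines it passed for tipifarnib in MDA-MB-231 alone (log2 fold change 1.20 ± 0.26 SE, edgeR adjusted p = 0.011). 0 members and 0 of all genes passed the edgeR test, so percent called was 0, and 0 members but 125 genes in all had an unadjusted p under 0.05. That is 0.731% of all genes, below the share of 0.05 that this threshold gives without any effect, so the test was conservative. DESeq2, limma-voom and a model with each line's own effects also called 0 members. The members' estimates ran from -1.04 (HK2) to 1.07 (ALDOC) with a median of 0.16, beside 0.01 over all genes. Of the members 28 of 35 were above 0, beside 8798 of 17096 genes tested. All come from the same 12 libraries, so the signs of the members are not independent of each other. ALDOC had the smallest p, 0.074 unadjusted (log2 fold change 1.07 ± 0.54 SE, edgeR adjusted p = 1), and its A549 libraries had 3.54 CPM in tipifarnib-treated and 1.01 CPM in DMSO-treated MYC cells, against 0.864 and 1.67 CPM in control cells. All 6 lower glycolytic members and all 4 lactate members had estimates above 0, from 0.02 to 0.45 and from 0.01 to 0.38. The ratios of the summed 17 enzymes given above were nearer to 1 for the MYC cells of SKOV3 and A549 than for their control cells, and not in MDA-MB-231, and this was not tested.

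Other genes of the pathway were followed as 4 lists chosen with earlier results known. Of all genes tested, 4.66% were called higher and 6.63% lower with tipifarnib over both genotypes. Of 22 further glycolysis and pyruvate genes tested, 2 rose and 1 fell in this comparison. PDP1, the phosphatase that switches pyruvate dehydrogenase back on, had 67, 66.1 and 18.9 CPM in tipifarnib-treated MYC cells and 78.8, 108 and 30.7 CPM in tipifarnib-treated control cells, against 43.6, 29 and 12.3 CPM in DMSO-treated MYC cells and 59.6, 59.5 and 16.4 CPM in DMSO-treated control cells (log2 fold change 0.76 ± 0.12 SE, edgeR adjusted p = 0.00544), higher in all pairs. SLC2A6, a glucose transporter family member of lysosomes, rose by 1.46 ± 0.36 (SE, edgeR adjusted p = 0.0288), and PGM1, a phosphoglucomutase, fell (log2 fold change -0.28 ± 0.08 SE, edgeR adjusted p = 0.045). Of 25 further oxygen sensing and hypoxia genes 5 rose and 0 fell by edgeR, 13 having an unadjusted p under 0.05, beside 27.8% of all genes. The risers were EPAS1, the paralog of HIF1A (log2 fold change 1.48 ± 0.32 SE, edgeR adjusted p = 0.0195), DDIT4, an inhibitor of mTOR signalling (log2 fold change 1.27 ± 0.29 SE, edgeR adjusted p = 0.023), INSIG2, a sterol sensor of the endoplasmic reticulum, P4HA2, a collagen prolyl hydroxylase subunit, and BNIP3L, a receptor for the removal of mitochondria, the last 3 by 0.62, 0.44 and 0.43. EPAS1 had 57.2, 114 and 252 CPM in tipifarnib-treated MYC cells and 100.7, 193 and 250.1 CPM in tipifarnib-treated control cells, against 21.9, 12.9 and 130.1 CPM in DMSO-treated MYC cells and 52.7, 38.5 and 212 CPM in DMSO-treated control cells. Its tipifarnib library was above its DMSO partner in every pair, most in SKOV3. In the pentose phosphate pathway PGLS rose, 1 of 7 tested, and in gluconeogenesis PCK2, the mitochondrial enzyme that makes phosphoenolpyruvate, rose, 1 of 4 tested (log2 fold change 1.67 ± 0.37 SE, edgeR adjusted p = 0.0199).

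With MYC over both treatments, 2 of the 22 further glycolysis and pyruvate genes rose and 1 fell, beside 4.5% of all genes called higher and 2.84% lower. PDHA1, the catalytic subunit of pyruvate dehydrogenase, and PGM2 rose, by 0.42 (adjusted p = 0.0118) and 0.42 (adjusted p = 0.0169), and PDP1 fell, with a log2 fold change of -0.59 (adjusted p = 0.0245). Of the 25 further hypoxia genes FAM162A, a mitochondrial protein, rose, with 49, 35.2 and 42.9 CPM in MYC cells with tipifarnib and 60.9, 50.9 and 55.8 CPM in MYC cells with DMSO, against 26.5, 29.9 and 24 CPM in control cells with tipifarnib and 32.3, 35.4 and 25.3 CPM in control cells with DMSO. It was higher in MYC cells in every pair, without overlap in MDA-MB-231 and A549 and with overlap in SKOV3 (log2 fold change 0.76 ± 0.11 SE, edgeR adjusted p = 0.0108). BNIP3L, the relative of BNIP3, and P4HA2 fell, with log2 fold changes of -0.79 (adjusted p = 0.0088) and -0.46 (adjusted p = 0.0134). RPIA was the 1 of 7 pentose phosphate genes to rise (log2 fold change 0.65 ± 0.12 SE, edgeR adjusted p = 0.0185), and 0 of 4 gluconeogenesis genes passed by edgeR. PDP1, P4HA2 and BNIP3L were therefore higher with tipifarnib and lower with MYC; the 2 comparisons use the same 12 libraries.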

How the data were processed

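Total RNA of 12 cultures was made into libraries with a SMARTER mRNA-Seq kit, per the labels. Per the submitters' processing notes, the authors used TopHat2, HTSeq and DESeq2 and the build hg19; versions, annotation and strand setting are not given in the sources used here, so overlapping and antisense genes cannot be told apart. The authors deposited raw counts per gene, 1 column per library. The 5 HTSeq summary rows (17.5% to 19.9% of all counts) were left out. Gene names and lengths come from GENCODE 29 and promoters from RefSeq, both GRCh38, so no hg19 coordinates are given.

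Low counts were removed with filterByExpr on the 4 groups, which left 17096 genes, scaled by TMM and tested with the edgeR 4.0.16 quasi-likelihood test (R 4.3.3), Benjamini-Hochberg over all genes, adjusted p under 0.05. Comparisons over all lines, and levels between lines, used line plus group (6 residual degrees of freedom, biological coefficient of variation 0.2446); effects within lines and their differences used a MYC and a tipifarnib effect fitted per line (3 residual degrees of freedom, 0.1354), where the interaction is the error. In all, 18 comparisons were made. The scripts were tested on simulated data. Cell line was the block: after centring on groups, libraries of 1 line correlated at r 0.829 to 0.922 across genes (18 pairs). Those of other lines correlated at -0.551 to -0.307 (36 pairs). With 3 libraries in a group, centring itself pushes the values between lines below 0, so these are no support for the block. P-values measure the spread between these libraries. CPM per kb used the principal transcript's length.

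Members, lists and tests were chosen with earlier results of these data known. Full values are given for members called over all lines or in the interaction, and for up to 4 members per effect with the largest difference between lines; the others named, those of single lines and of the closing section included, were chosen after their values were seen. Alternatives were DESeq2 1.42.0 and its size factors, limma-voom (limma 3.58.1), no low count filter, no replicate block, summed pairs, and leaving out libraries or lines. Python 3.11.15, pandas 2.3.3 and matplotlib 3.10.9 were used.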

Additional observations from a re-analysis of the deposited data

Results flagged for a closer look

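For 22 effects the difference between 2 lines passed the edgeR quasi-likelihood test (log2 scale, Benjamini-Hochberg adjusted p over all genes). The tipifarnib change in MDA-MB-231 minus that in SKOV3 was -2.32 for ADM, -1.82 for HK2, -0.88 for EGLN1, -5.29 for SLC2A3, -1.05 for SLC16A3 and -0.94 for SLC2A1. In MDA-MB-231 minus A549 it was 1.96 for SLC2A3. In SKOV3 minus A549 it was 7.25 for SLC2A3, 2.47 for HK2, 1.52 for ADM and 2.56 for NDRG1. The doses were 20 µM in MDA-MB-231 and SKOV3 and 10 µM in A549, so dose and line cannot be told apart in the comparisons with A549. The SLC2A3 values that involve SKOV3 rest on 0 counts in its DMSO libraries and depend on the prior count.

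The MYC change in MDA-MB-231 minus that in A549 was -4.83 for HK2, -2.07 for SLC2A3, -1.80 for SLC16A3, -1.76 for ADM and 1.12 for PFKFB3. In SKOV3 minus A549 it was -5.20 for HK2, -2.15 for ADM, -1.50 for SLC16A3, -1.21 for P4HA1, -1.06 for PDK1 and -0.77 for PFKM. The level of MYC in MYC cells with DMSO was 709 CPM in MDA-MB-231, 494 CPM in SKOV3 and 912 CPM in A549, and its part in these differences was not tested.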

How the results depend on the processing

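Of 163 gene results of members past the threshold, 63 passed in every alternative run. Of 1406 gene alternatives 1040 stayed past the threshold in the same direction, 364 lost it and 2 reversed. The 2 reversals were HK2 for tipifarnib in A549, at 0.12 without either MYC library. Without either control library it kept its direction, at -1.24. For tipifarnib over both genotypes 12 members passed, but 0 without the replicate block and 0 with the libraries of a line summed into 3 pairs; for MYC over both treatments (3 members) the counts were 0 and 0, and 6 with limma-voom and 6 with DESeq2. The pairing comes from the cell line, and lines differ widely in level. Without the low count filter the members called were 12 for tipifarnib in A549, 4 for MYC in MDA-MB-231, and for differences of tipifarnib effects 14 (MDA-MB-231 minus SKOV3), 8 (MDA-MB-231 minus A549) and 8 (SKOV3 minus A549), and of MYC effects 4 (MDA-MB-231 minus SKOV3) and 12 (SKOV3 minus A549). DESeq2 gave 2 for MYC in MDA-MB-231, 2 for the tipifarnib effect in MDA-MB-231 minus A549 and 1 for the MYC effect in MDA-MB-231 minus SKOV3, and limma-voom gave 1 for MYC in MDA-MB-231; the cause was not tested. Leaving out 1 line gave 0 to 7 members for tipifarnib over both genotypes, 0 to 0 for MYC and 0 to 0 for the interaction. Leaving out 1 library, which leaves the remaining 3 of a line with no spread of their own and assumes that they vary like the other lines, gave for tipifarnib 2 to 4 in MDA-MB-231, 2 to 8 in SKOV3 and 4 to 4 in A549, and for MYC 0 to 0, 0 to 4 and 8 to 9. For differences of tipifarnib effects it gave 1 to 7 (MDA-MB-231 minus SKOV3), 0 to 5 (MDA-MB-231 minus A549) and 1 to 6 (SKOV3 minus A549), and of MYC effects 0 to 1, 2 to 6 and 2 to 6. Leaving out 1 group gave 17 to 22, 16 to 19 and 21 to 27 members for levels in the same order. Members of few counts (CA9, ANKRD37, ALDOC in A549, SLC2A3 in SKOV3) are limited by depth. For most of these alternative fits the share of all genes called is not given here. The counts therefore show how calls depend on the processing and are no result about the members.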

Other observations

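Outside the 35 members, single genes of the further glycolysis list showed large changes in 1 line; they were picked after their values were seen. HKDC1, a further hexokinase gene, had 14.8 CPM in tipifarnib-treated MYC cells and 12.2 CPM in tipifarnib-treated control cells, against 0.431 CPM in DMSO-treated MYC cells and 0.816 CPM in DMSO-treated control cells in MDA-MB-231 (log2 fold change 4.44 ± 0.26 SE, edgeR adjusted p = 4.98e-05). In SKOV3 it had 193 CPM in tipifarnib-treated MYC cells and 152 CPM in tipifarnib-treated control cells, against 77 CPM in DMSO-treated MYC cells and 71.3 CPM in DMSO-treated control cells (log2 fold change 1.21 ± 0.16 SE, edgeR adjusted p = 0.00154), and its change was larger in MDA-MB-231 by 3.23 ± 0.32 (SE, edgeR adjusted p = 0.00268). SLC2A12, a glucose transporter family member, had 0.134 CPM in tipifarnib-treated MYC cells and 0.895 CPM in tipifarnib-treated control cells, against 7.7 CPM in DMSO-treated MYC cells and 8.42 CPM in DMSO-treated control cells in SKOV3 (log2 fold change -4.03 ± 0.52 SE, edgeR adjusted p = 0.00146), where SLC2A1 rose. SLC16A7, a transporter of lactate and pyruvate, had 2.34 and 4.34 CPM in MYC cells with tipifarnib and DMSO, against 0.546 and 0.132 CPM in control cells with tipifarnib and DMSO in A549 (log2 fold change 3.26 ± 0.49 SE, edgeR adjusted p = 0.00224).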
